A study of Mus musculus with 12 samples.

Results

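Regulators and markers of oligodendrocyte precursors were followed in the E17.5 mouse cortex after deletion of Egfr, which encodes the receptor for epidermal growth factor. The 9 genes are Olig1, Olig2, Nkx2-2, Pdgfra, Sox10, Cspg4, Gpr17, Lhfpl3 and Bcas1. They were taken by gene name from the 55357 genes listed in each library, and each name matched 1 gene. All 9 also had enough counts to be tested in every comparison.

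The libraries hold messenger RNA of cerebral cortex dissected together with the hippocampal formation. Knockout embryos were Nestin-EgfrF/F: a Nestin-Cre transgene, active in neural progenitors, and floxed Egfr on both chromosomes. Control embryos were EgfrF/+, with 1 floxed and 1 intact allele, so that every embryo carried at least 1 floxed allele. Whether control embryos carried Cre is not given in the sources used here, so loss of Egfr and the presence of Cre cannot be told apart. A rostral and a caudal sample were prepared of each cortex, giving 4 groups of 3 libraries: knockout rostral and knockout caudal, control rostral and control caudal. The titles number the embryos 5, 2 and 7 in the knockout and 1, 3 and 9 in the control, and libraries are called by these numbers.

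Oligodendrocytes are the cells that make myelin. They arise from precursors that form first in the ventral forebrain and later in the cortex itself, and migrate and divide before they differentiate. Around birth the mouse cortex holds many precursors and very little myelin. Olig1 and Olig2 are basic helix-loop-helix transcription factors, expressed in glial progenitors and in precursors, and Olig2 is needed for the lineage to form. Nkx2-2 and Sox10 are transcription factors of the committed lineage. Pdgfra is the receptor for platelet-derived growth factor A, the main mitogen of precursors, and Cspg4 encodes the NG2 proteoglycan on their surface. Gpr17 is a receptor of precursors that have begun to differentiate, Bcas1 marks oligodendrocytes that are starting to myelinate, and Lhfpl3 is a membrane protein gene used as a precursor marker.

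Total counts per library ran from 25223733 to 30383672. Egfr was at 3.601 to 7.33 CPM (counts per 1000000 counts of the library) in the 6 knockout libraries and at 19.2 to 41.6 CPM in the 6 control libraries, without overlap. Other transcripts did not follow the titles. Transcripts of the inactive X chromosome and of the Y chromosome were alike in both libraries of 1 of the 6 titled embryos, and 2 control libraries, rostral 1 and rostral 3, held both kinds. Nr2f1, a gene with a known caudal-high gradient in the cortex, was higher in the library titled caudal in 4 of the 6 embryos. The genotype labels were borne out by Egfr, whereas the part labels and the pairing of libraries into embryos rest on the titles. The mitochondrial share of counts was highest in knockout rostral 7 (7.25%) and knockout caudal 5 (4.77%). The labels do not say that libraries of a group come from separate litters, and p-values measure only the spread between these samples.

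To compare the genes with one another, levels were divided by the listed exon length. Over the 12 libraries Olig1 was the highest, at 9.34 ± 4.89 CPM per kb (SD, n = 12), followed by Olig2 at 5.45 ± 2.66 CPM per kb. Pdgfra came next, at 2.72 ± 0.723 CPM per kb. The order below them was Lhfpl3 (1.78 CPM per kb), Gpr17 (1.52 CPM per kb), Cspg4 (1.04 CPM per kb), Sox10 (0.819 CPM per kb) and Bcas1 (0.538 CPM per kb). Nkx2-2 was the lowest, at 0.193 ± 0.0846 CPM per kb, with 0 counts in knockout caudal 7. For every pair of neighbours in this order, the ranges over the 12 libraries overlapped. In the knockout the distance between the 3 leading genes was smaller: knockout caudal libraries had 4.31 ± 0.774 CPM per kb of Olig1, 2.87 ± 1.07 CPM per kb of Olig2 and 2.08 ± 0.677 CPM per kb of Pdgfra. Control caudal libraries had 15.3 ± 4.23, 8.06 ± 1.30 and 3.36 ± 0.775 CPM per kb of the same genes (SD, n = 3 each).

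Olig1 and Olig2 lie close together on chromosome 16 and separated the genotypes in every library. In GRCm39, Olig2 (ENSMUSG00000039830.10) spans chr16:91022345-91025565 and Olig1 (ENSMUSG00000046160.7) spans chr16:91066660-91068821, both on the plus strand and 41.1 kb apart. The region from 250 bases before to 50 bases after the gene start was taken from RefSeq (GRCm38.p6), which gave a promoter for 5 of the 9 genes: Olig2, Nkx2-2, Pdgfra, Cspg4 and Lhfpl3. The promoters of Olig2 (chr16:91225300-91225599, plus strand) and Pdgfra (chr5:75152001-75152300, plus strand) are shown because Olig2 passed the test below and Pdgfra did not; capitals mark the E-box CANNTG, the motif that basic helix-loop-helix factors bind.
Olig2: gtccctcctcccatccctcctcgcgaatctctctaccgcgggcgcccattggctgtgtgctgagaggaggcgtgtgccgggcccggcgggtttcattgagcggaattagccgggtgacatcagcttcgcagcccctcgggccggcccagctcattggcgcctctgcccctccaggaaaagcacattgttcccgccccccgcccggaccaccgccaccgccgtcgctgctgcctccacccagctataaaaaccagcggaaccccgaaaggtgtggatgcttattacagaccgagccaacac
Pdgfra: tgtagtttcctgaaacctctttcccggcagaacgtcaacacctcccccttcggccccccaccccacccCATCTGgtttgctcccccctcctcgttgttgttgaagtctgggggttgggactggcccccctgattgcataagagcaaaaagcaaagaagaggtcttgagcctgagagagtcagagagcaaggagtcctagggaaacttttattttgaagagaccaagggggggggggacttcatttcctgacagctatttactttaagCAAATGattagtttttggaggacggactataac
Pdgfra and Lhfpl3 held 2 E-boxes each, Nkx2-2 held 3, and Olig2 and Cspg4 held 0. Among 32851 promoters of this length, 72.3% held an E-box. The Sox motif ACAAAG was searched on both strands too, and was in 0 of the 5 members' promoters and in 18.7% of all. A stretch of letters is not a bound site, and nothing about any factor follows from its presence or absence.

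In single libraries, Olig1 was at 14.03, 10.8 and 17.46 CPM in knockout rostral 5, 2 and 7 and at 10.01, 10.6 and 7.42 CPM in knockout caudal 5, 2 and 7. Control rostral 1, 3 and 9 had 23.1, 27.7 and 21.9 CPM of Olig1, and control caudal 1, 3 and 9 had 28.3, 27.4 and 43.7 CPM. The highest knockout library thus stayed below the lowest control library, and control caudal 9 stood above all others. Olig2 was at 7.80, 5.56 and 11.4 CPM in knockout rostral 5, 2 and 7 and at 6.35, 10.3 and 5.12 CPM in knockout caudal 5, 2 and 7. Control rostral 1, 3 and 9 had 17.8, 19.8 and 20.2 CPM of Olig2, and control caudal 1, 3 and 9 had 16.7, 21.3 and 23.1 CPM. Again no knockout library reached a control library. Of the 9 genes these were the only ones whose 6 knockout and 6 control libraries did not overlap; of 18935 genes, 0.127% did not overlap in either direction and 0.0951% were lower in the knockout without overlap.

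**Figure D1:**
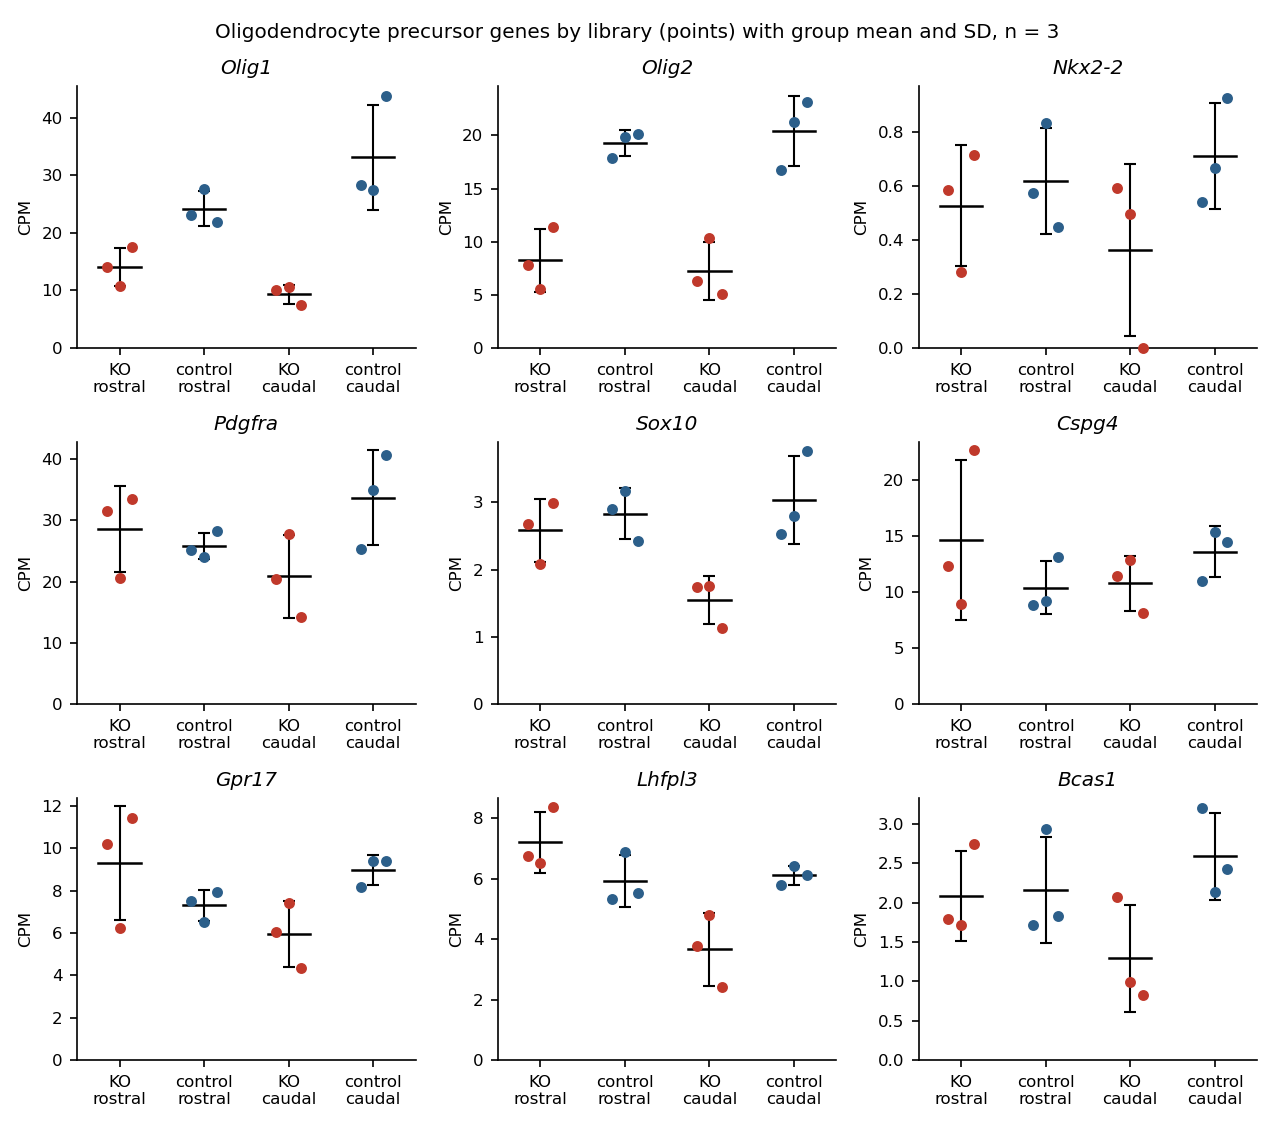
Level of each of the 9 genes in CPM (vertical axis, from 0) in the 12 libraries; KO is knockout. Points are libraries (red, knockout; blue, control), and the bar and whiskers are the mean and SD of the 3 libraries of a group. Olig1 and Olig2 are lower in all 6 knockout libraries than in any control library, and the other 7 genes overlap.

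Both genes passed the test in the main comparison. Counts of both libraries of a titled embryo were summed and 3 knockout sums were compared with 3 control sums by edgeR's quasi-likelihood test with Benjamini-Hochberg adjustment over 18935 genes. Olig1 averaged 11.8 ± 0.999 CPM in knockout sums and 28.6 ± 3.58 CPM in control sums (SD, n = 3 each), 41.1% of control. It fell by 1.26 on the log2 scale (SE 0.115, adjusted p = 0.00810 by edgeR). Olig2 averaged 7.75 ± 0.677 CPM in knockout sums and 19.8 ± 2.27 CPM in control sums (SD, n = 3 each), 39.1% of control. It fell by 1.33 on the log2 scale (SE 0.116, adjusted p = 0.00764 by edgeR). In bulk tissue, fewer cells that express these genes and less of their RNA per cell cannot be told apart. The test called 6 of 18935 genes (0.0317%), 2 of them higher (0.0106%) and 4 lower (0.0211%), the lower ones being Egfr, Olig2, Hes5 and Olig1, so 2 of the 9 precursor genes were among the 4. Without control rostral 1 and 3, which held transcripts of both sexes, the log2 fold changes were -1.32 for Olig1 (adjusted p = 0.00337 by edgeR) and -1.36 for Olig2 (adjusted p = 0.0130). In that fit controls 1 and 3 were represented by their caudal library alone, so genotype was mixed with part. Olig1 averaged 24.2 CPM in control rostral and 33.1 CPM in control caudal libraries.

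Whether the calls were made depended on how the libraries were combined. The libraries paired by title deviated in opposite directions from their group means (Pearson's r from -0.709 to -0.238 in the 6 pairs, over 1000 genes), and the coefficient of variation between samples was 0.111 for sums and 0.203 for the 12 libraries. With the 12 libraries as separate samples, the log2 fold changes were -1.27 (Olig1) and -1.33 (Olig2) and neither gene was called (adjusted p = 0.260 and 0.0902 by edgeR). With limma-voom on the 12 libraries and the titled embryo as a random effect, both were called (adjusted p = 0.0148 for Olig1 and 0.00235 for Olig2), with an estimated correlation within titled embryos of -0.284. Both calls were also lost without knockout 5 (log2 fold change -1.26 for each, adjusted p = 0.0782 for Olig1 and 0.0507 for Olig2), where edgeR called 2 genes in all and 0 of them lower, so that Egfr itself was not called. Without the 2 knockout libraries with the highest mitochondrial shares, the log2 fold changes were -1.40 for Olig1 and -1.49 for Olig2, and neither was called (adjusted p = 0.528 and 0.0954 by edgeR). That fit kept a single library each of knockout 5 (rostral) and knockout 7 (caudal).

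The receptor Pdgfra did not follow them. It was at 31.6, 20.6 and 33.6 CPM in knockout rostral 5, 2 and 7 and at 20.5, 27.8 and 14.3 CPM in knockout caudal 5, 2 and 7. Control rostral 1, 3 and 9 had 25.2, 24.1 and 28.2 CPM of Pdgfra, and control caudal 1, 3 and 9 had 25.3, 34.999 and 40.7 CPM. Knockout libraries were both the lowest and, in the rostral part, the highest, and the groups overlapped. Over the sums Pdgfra averaged 24.7 ± 0.896 CPM in the knockout and 29.8 ± 4.57 CPM in the control (SD, n = 3 each), with a log2 fold change of -0.24 (SE 0.112, unadjusted p = 0.0590, adjusted p = 0.999957 by edgeR).

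Gpr17 was at 10.2, 6.26 and 11.4 CPM in knockout rostral 5, 2 and 7 and at 6.06, 7.44 and 4.34 CPM in knockout caudal 5, 2 and 7. Its levels in control rostral 1, 3 and 9 were 7.52, 6.50 and 7.94 CPM, and those in control caudal 1, 3 and 9 were 8.18, 9.40 and 9.42 CPM. The 3 knockout caudal libraries were below the 3 control caudal libraries, and the rostral groups overlapped. Over sums the log2 fold change of Gpr17 was -0.07 (SE 0.109). Lhfpl3 was at 6.74, 6.52 and 8.37 CPM in knockout rostral 5, 2 and 7 and at 3.78, 4.81 and 2.40 CPM in knockout caudal 5, 2 and 7. Its levels lay between 5.32 and 6.90 CPM in control rostral and between 5.79 and 6.44 CPM in control caudal libraries. As for Gpr17, the caudal groups were apart and the rostral groups overlapped, and over sums the log2 fold change was -0.11 (SE 0.111).

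Cspg4 was the 1 gene of the 9 with a positive value over sums. It was at 12.3, 8.97 and 22.6 CPM in knockout rostral 5, 2 and 7 and at 11.4, 12.9 and 8.08 CPM in knockout caudal 5, 2 and 7. Control libraries ran from 8.86 to 15.4 CPM. Knockout rostral 7 stood apart from the other 11 libraries. For Cspg4 the log2 fold change was 0.12 (SE 0.178) with all libraries and -0.07 without knockout 7. Pericytes express Cspg4 too, and the 9 mural cell markers together were at 231 CPM in knockout rostral 7, between 84.1 and 148 CPM in the other 5 of the knockout and 108 to 153 CPM in the control libraries. The part of mural cells in the Cspg4 values was not tested.

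The 3 least expressed genes had negative values over sums and did not pass the test. Sox10 was at 2.67, 2.08 and 3.00 CPM in knockout rostral 5, 2 and 7, at 1.74, 1.76 and 1.13 CPM in knockout caudal 5, 2 and 7, and between 2.42 and 3.77 CPM in the control libraries. Over sums it had a log2 fold change of -0.47 (SE 0.137, unadjusted p = 0.00798, adjusted p = 0.999957 by edgeR). Bcas1 was at 1.79, 1.71 and 2.75 CPM in knockout rostral 5, 2 and 7, at 2.07, 0.993 and 0.82 CPM in knockout caudal 5, 2 and 7, and between 1.72 and 3.201 CPM in the control libraries. Its log2 fold change was -0.44 (SE 0.176, unadjusted p = 0.0364). Nkx2-2 lay between 0 and 0.714 CPM in the knockout and between 0.447 and 0.923 CPM in the control, with a log2 fold change of -0.53 (SE 0.265, unadjusted p = 0.0790). At these levels only a large difference can be seen for Nkx2-2. The median log2 fold change was -0.44 over the 9 genes and -0.00036 over all genes tested; these genes share cells and libraries and are not replicates of one another.

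Olig1 and Olig2 were also lower relative to Pdgfra within each library, where depth and scaling cancel. These ratios were chosen after the values had been seen and are given as a description. The count of Olig2 per count of Pdgfra was 0.247 to 0.370 in the 6 knockout libraries and 0.568 to 0.823 in the 6 control libraries. The ratio of Olig1 to Pdgfra was 0.379 to 0.526 in knockout and 0.774 to 1.15 in control libraries. Neither ratio overlapped, and the knockout means were 0.464 and 0.495 of the control means. Gpr17 to Pdgfra was 0.267 to 0.340 in knockout and 0.231 to 0.323 in control libraries, and Olig1 to Olig2 was 1.02 to 1.94 in knockout and 1.09 to 1.89 in control libraries; both overlapped. Of 18934 genes, 3 had a ratio to Pdgfra that was lower in all knockout libraries than in any control library (0.0158%; 0.0739% in either direction), and these were Egfr, Olig2 and Olig1. Leaving libraries out cannot make separate ranges overlap, so only the ratio of means was followed. With single titled embryos left out, the knockout mean was 0.440 to 0.491 of the control mean for Olig2 and 0.474 to 0.509 for Olig1. Without control rostral 1 and 3 it was 0.495 for Olig2 and 0.512 for Olig1. Over the titled sums, the exact two-sided permutation p was 0.1 for each of these 2 ratios, the smallest that 3 against 3 can give. It was also 0.1 for Sox10 to Pdgfra and for Cspg4 to Pdgfra, so this p does not set Olig1 and Olig2 apart. Their knockout means were 0.831 (Sox10) and 1.27 (Cspg4) of the control means, and their libraries overlapped.

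**Figure D2:**
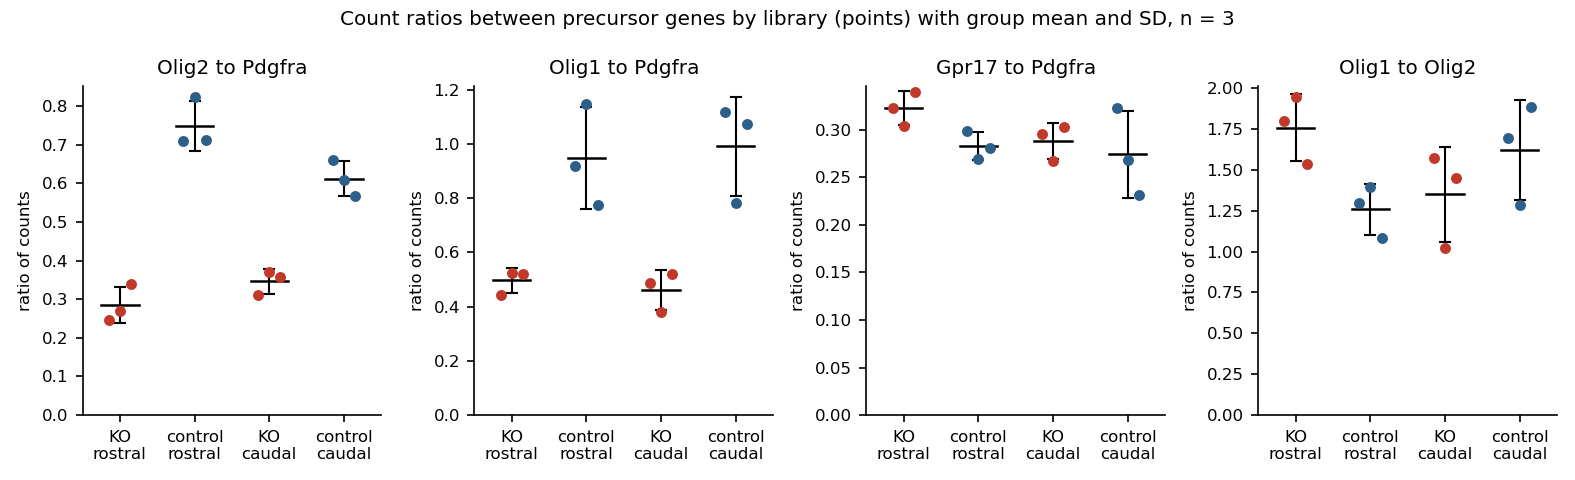
Ratio of deposited counts of 2 genes within a library (vertical axes, from 0) for the 12 libraries, with the mean and SD of each group of 3; KO is knockout. Olig2 to Pdgfra and Olig1 to Pdgfra separate knockout from control libraries in both parts, and Gpr17 to Pdgfra and Olig1 to Olig2 overlap.

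Within the rostral libraries alone, Olig1 and Olig2 had negative values, whereas Pdgfra, Cspg4, Gpr17 and Lhfpl3 had positive values there. Of 17131 genes edgeR called 0 (0%), with 180 at an unadjusted p under 0.05, and DESeq2 called 4, of which 0 were precursor genes. The log2 fold change was -1.18 for Olig2 (SE 0.263, unadjusted p = 0.00292) and -0.74 for Olig1 (SE 0.196, unadjusted p = 0.00732), both with an adjusted p of 0.999992 by edgeR. The other 7 lay between -0.18 for Nkx2-2 and 0.53 for Cspg4, with Pdgfra at 0.18, Gpr17 at 0.38 and Lhfpl3 at 0.32. Positive values were also found for all tested mural cell (8), microglial (6), endothelial (5), meningeal (5) and astrocyte (9) markers. Of the radial glia markers 4 of 8 were positive, and of the projection neuron markers 1 of 6. Of the ventral forebrain markers 3 of 16 were positive, of the choroid plexus markers 1 of 2 and of further precursor genes 4 of 11. Without control rostral 1 and 3, which leaves 1 control library assumed to vary like the knockout ones, the values were -1.29 for Olig2 and -0.63 for Olig1, with 0 calls among the 9. Knockout and control rostral groups did not overlap for 2 of the 9 genes, and for 6.21% of all genes (4.75% lower in the knockout). These 2 were Olig1 and Olig2, whose separation within a part follows from that over all libraries and adds nothing to it.

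Within the caudal libraries all 9 genes had negative values. So had all 5 endothelial, all 5 meningeal and all 3 choroid plexus markers tested. Negative values were also found for 15 of 16 ventral forebrain and 8 of 9 mural cell markers, and for 9 of 11 further precursor genes. Of the microglial markers 4 of 6 were negative. Of the astrocyte markers 4 of 9 were negative, of the radial glia markers 2 of 8 and of the projection neuron markers 2 of 6. edgeR called 8 of 16964 genes (0.0472%; 0.0354% higher and 0.0118% lower), 0 of them precursor genes, whereas DESeq2 called 77 genes and among them Olig1 and Olig2. The log2 fold change was -1.82 for Olig1 (SE 0.219, adjusted p = 0.0704 by edgeR and 4.2e-12 by DESeq2). For Olig2 it was -1.48 (SE 0.263, adjusted p = 0.353 by edgeR and 3.9e-05 by DESeq2). Without knockout caudal 2, Olig2 was called by edgeR as well (-1.81, adjusted p = 0.0388). Of the 9 genes, 7 had an unadjusted p under 0.05, among 871 of all 16964 genes. Bcas1 had a log2 fold change of -0.97 (SE 0.364), Sox10 of -0.96 (SE 0.264), Lhfpl3 of -0.72 (SE 0.246), Pdgfra of -0.68 (SE 0.266) and Gpr17 of -0.59 (SE 0.206), and none of these passed the adjusted threshold by either tool. Knockout and control did not overlap for 6 of the 9 genes, all but Nkx2-2, Pdgfra and Cspg4, and for 10.1% of all genes (6.14% lower in the knockout). For Olig1 and Olig2 this follows from their separation over all 12 libraries. Knockout caudal 7 was the lowest of the 12 libraries for each of the 9 genes. Without it, the caudal log2 fold changes were -1.68 for Olig1, -1.29 for Olig2, -0.79 for Sox10, -0.50 for Lhfpl3, -0.47 for Pdgfra and -0.41 for Gpr17, and 0 of the 9 were called.

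**Figure D3:**
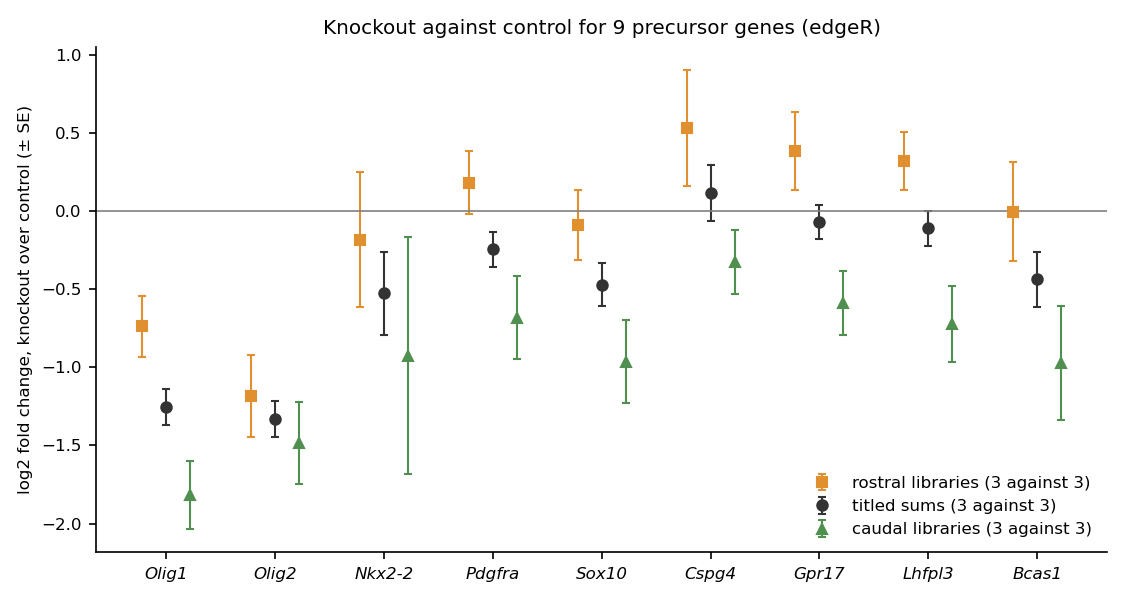
Log2 fold change of knockout over control (vertical axis) for the 9 genes in rostral libraries (squares), titled sums (circles) and caudal libraries (triangles), 3 against 3 each, with the SE from edgeR. Olig1 and Olig2 are below 0 in the 3 comparisons; Pdgfra, Cspg4, Gpr17 and Lhfpl3 are above 0 in rostral and below 0 in caudal libraries.

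Whether the genotype difference itself differed between the parts was tested as an interaction over the 12 libraries. All 9 genes had a lower knockout-to-control difference in caudal than in rostral libraries, and 0 were called. This sign was not particular to them. All tested mural cell (9), microglial (6), endothelial (5) and meningeal (5) markers and 8 of 9 astrocyte markers had it too. Fewer had it among radial glia (3 of 8), projection neuron (1 of 6), ventral forebrain (6 of 16) and choroid plexus (2 of 4) markers. Of 17734 genes edgeR called 0 (0%), with 486 at an unadjusted p under 0.05, and DESeq2 called 1. Unadjusted p in edgeR was under 0.05 for 5 of the 9 genes. The interaction value was -1.08 for Olig1 (SE 0.314, adjusted p = 0.998268 by edgeR) and -1.04 for Lhfpl3 (SE 0.315). It was -0.97 for Gpr17, -0.87 for Sox10 and -0.86 for Pdgfra, with the same adjusted p. The value for Olig2 was -0.29 (SE 0.401) and turned to 0.22 without knockout 7. Without control rostral 1 and 3, 0 of the 9 were called for the interaction (-1.18 for Olig1) or between parts. Caudal against rostral over both genotypes, edgeR called 0 of 17734 genes (0%), with 1745 at an unadjusted p under 0.05, and DESeq2 called 56; the 9 precursor genes lay between -0.43 for Lhfpl3 (SE 0.214, unadjusted p = 0.0666) and -0.0019 for Cspg4, and 0 were called by either tool. Because the part labels disagree with Nr2f1 in 2 of the 6 titled embryos, these comparisons by part are of the labels.

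Among the genes around Olig2 and Olig1, 0 others passed the test. Within 500 kb of the pair, 25 further genes could be tested, among them the interferon receptor genes Ifnar1, Ifnar2 and Ifngr2 and the splicing cofactor gene Son. Their log2 fold changes over sums ran from -0.15 for Synj1 (SE 0.0986) to 0.48 for the predicted gene Gm49626 (SE 0.366), and 0 of the 25 were called; the smallest unadjusted p among them was 0.113.

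**Figure D4:**
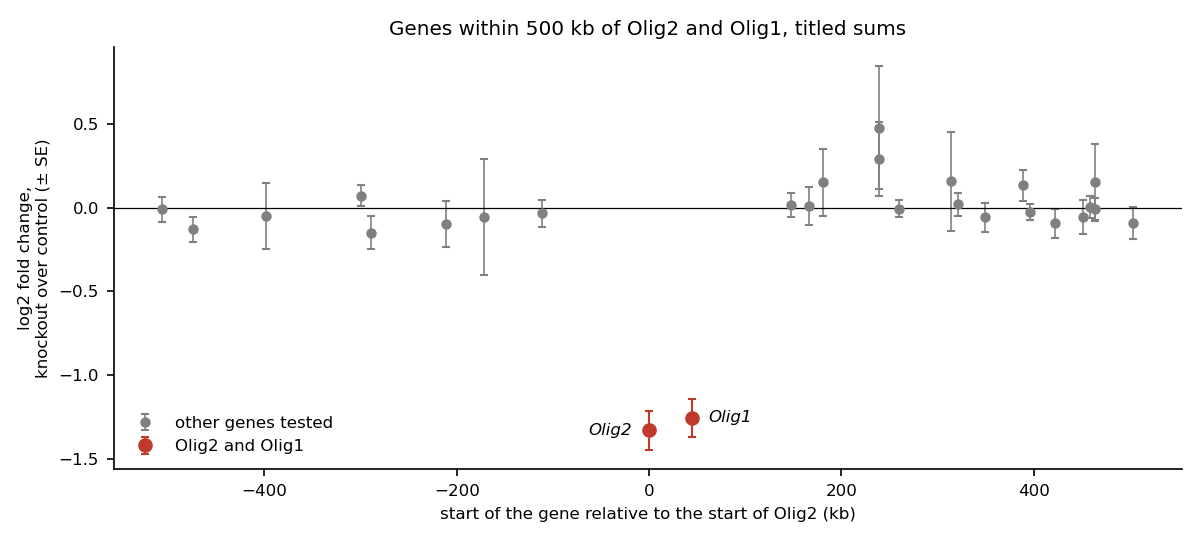
Log2 fold change of knockout over control over titled sums, with SE (vertical axis), for the tested genes within 500 kb of Olig2 and Olig1, by the distance of their start from that of Olig2 (horizontal axis, kb). Olig2 and Olig1 (red) are at -1.33 and -1.26, and the other 25 genes (grey) lie between -0.15 and 0.48.

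The genes most like each of the 3 leading members were found by the root mean squared difference in centred log2 CPM over the 12 libraries, among 10269 genes with a mean of at least 5 CPM. Nearest to Olig2 was Olig1, at 0.285, where the median over all genes was 0.787. After it came Hes5, a Notch target gene that keeps progenitors undifferentiated (0.432), Dusp5, a phosphatase of ERK kinases (0.466), Col18a1 (0.531) and Rundc3b (0.541). Nearest to Olig1 were Olig2, Col18a1 (0.447), Hes5 (0.502), Rundc3b (0.508) and Serpine2 (0.530), where the median was 0.756. Nearest to Pdgfra was Gpr17, at 0.147 with a median of 0.429, then Arhgap18 (0.214), the endothelin receptor gene Ednrb (0.230), the transcription factor gene Ets1 (0.234) and Dusp6 (0.238). With the minimum at 2 CPM, Sox10 was the second nearest to Olig1 (0.407). These distances use all 12 libraries, so they include the genotype difference, and they describe these libraries only.

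Among other genes of the lineage, 0 passed the test. Of 14 further precursor genes 12 could be tested, 0 were called, and 11 had a negative value, with a median log2 fold change of -0.13. The 2 with the smallest p were Pcdh15 (-0.33, SE 0.150, unadjusted p = 0.0565) and Ednrb (-0.22, SE 0.106, unadjusted p = 0.0734). Sox8, a close relative of Sox10, was at 16.9 to 30.6 CPM in knockout and 22.9 to 32.0 CPM in control libraries. Of 15 differentiation and myelin genes 10 could be tested and 0 were called, with a median of -0.03. Mbp, the myelin basic protein gene, was at 13.9 to 19.9 CPM in knockout and 13.4 to 21.1 CPM in control libraries, and the 2 with the smallest p were Sirt2 (0.06, SE 0.0484) and Ugt8a (-0.12, SE 0.139). Of the 15 genes, 7 were under 1 CPM in all 12 libraries, Myrf, Mag, Mog, Mobp and Opalin among them, and 0 were at 0 in all 12.

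The signals that act on precursors were measured in the same way. The PDGF ligands and the second receptor gave 0 calls among 5 genes, with a median of 0.05; Pdgfa, the ligand of Pdgfra, was at 5.86 to 16.7 CPM in knockout and 6.41 to 14.03 CPM in control libraries. Pdgfrb, the receptor of pericytes, had the smallest p (0.29, SE 0.0934, unadjusted p = 0.0138), followed by Pdgfc (0.23, SE 0.147). The hedgehog pathway, which induces Olig2 in the ventral neural tube, gave 0 calls among 11 tested genes of 12, with a median of -0.02. Its target Gli1 had a log2 fold change of 0.11 (SE 0.140), and the 2 with the smallest p were the inhibitor Hhip (0.24, SE 0.163) and the receptor Ptch1 (-0.18, SE 0.124). Among 8 tested genes of 9 that restrain oligodendrocyte fate or differentiation, Hes5 was called. It was at 10.3 to 20.2 CPM in knockout and 21.2 to 49.9 CPM in control libraries, without overlap, and fell by 1.23 on the log2 scale (SE 0.111, adjusted p = 0.00810 by edgeR). This call was lost without knockout 5, where edgeR called 0 genes lower. Only 1 gene was called lower with 12 separate libraries, with embryos titled 4692 alone, and without the 2 knockout libraries highest in mitochondrial share. In none of these fits can Hes5 and Egfr both have been called. In rostral libraries alone Hes5 had a log2 fold change of -1.12 (SE 0.354, adjusted p = 0.999992 by edgeR), and in caudal libraries alone of -1.32 (SE 0.191, adjusted p = 0.177).

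**Figure D5:**
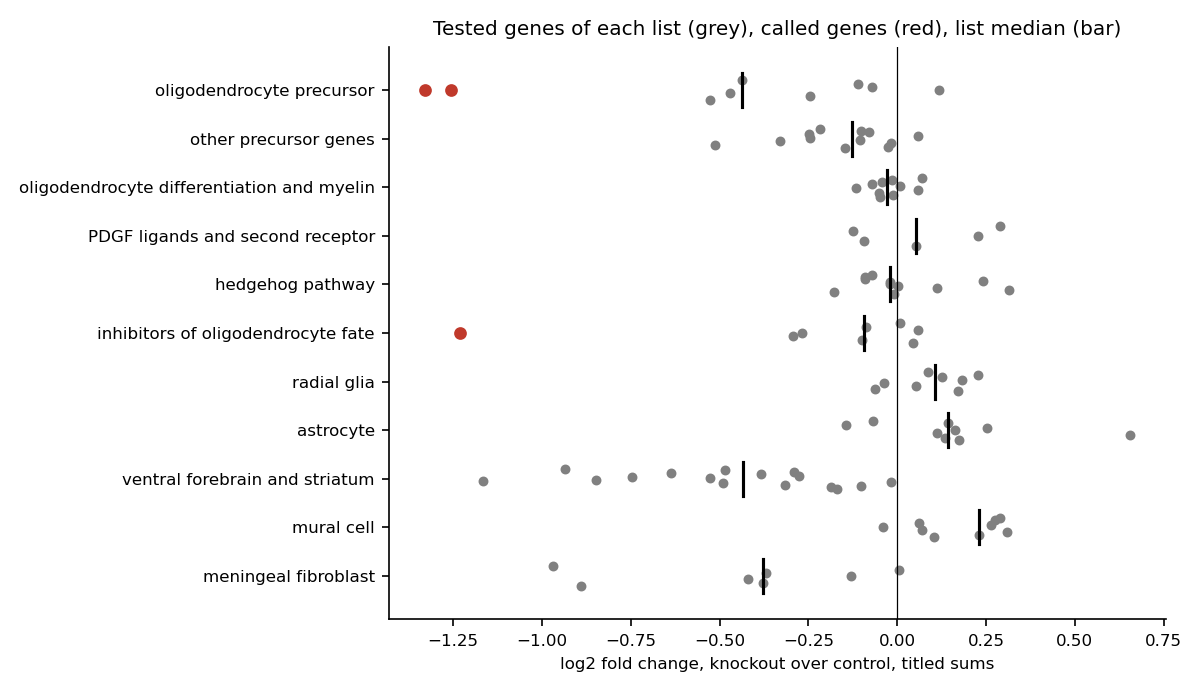
Log2 fold change of knockout over control over titled sums (horizontal axis) for the tested genes of 11 lists (rows); red points passed an adjusted p of 0.05 in edgeR, grey points did not, and black bars are list medians. Red points stand in the list of the 9 precursor genes (Olig1 and Olig2) and among the inhibitors of oligodendrocyte fate (Hes5); the ventral forebrain list lies at or below 0 throughout.

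Markers of other tissue that the dissection could hold were set beside these values. Olig1 and Olig2 are also expressed by progenitors of the ventral forebrain, from which, per the labels' protocols, the cortex was separated. Genes of the ventral forebrain and striatal list were detected in every library. Dlx1 alone was at 71.3 to 273 CPM in knockout and 101 to 325 CPM in control libraries. Whether these transcripts came from ventral tissue or from cells within the cortex was not tested. All 16 tested genes of the 17 on the ventral forebrain and striatal list had a negative value over sums, with a median of -0.43 and 0 calls; the 2 with the smallest p were Gsx1 (-0.49, SE 0.198, unadjusted p = 0.0360) and Ebf1 (-0.85, SE 0.359, unadjusted p = 0.0594). Their summed level was 160 to 703 CPM in knockout and 250 to 876 CPM in control libraries, and these ranges overlap. Knockout rostral 7 and knockout caudal 2, which had the highest sums of this list in the knockout (543 and 703 CPM), were also the highest knockout libraries for Olig2 (11.4 and 10.3 CPM). Of the control libraries, rostral 9 and caudal 3 had the highest sums of this list (657 and 876 CPM) and held 20.2 and 21.3 CPM of Olig2. Control rostral 3 and control caudal 9 had 250 and 301 CPM of this list and 19.8 and 23.1 CPM of Olig2. Of the ventral list, 0 genes were under 1 CPM in all 12 libraries, and its part in the values of Olig1 and Olig2 was not tested.

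For the remaining lists, edgeR called 0 genes over sums. The median log2 fold change was 0.14 over 9 tested astrocyte genes and 0.11 over 8 radial glia genes. It was 0.06 over 6 microglial genes, -0.08 over 5 endothelial genes and 0.08 over 6 projection neuron genes. Of the 9 astrocyte genes 7 had positive values and 3 had an unadjusted p under 0.05, among them the intermediate filament gene Gfap (0.66, SE 0.133, unadjusted p = 0.000903, adjusted p = 0.649 by edgeR) and the aldolase gene Aldoc (0.25, SE 0.0853, unadjusted p = 0.0173). The 2 with the smallest p were Tnc (0.23, SE 0.126) and Fabp7 (0.18, SE 0.103) of the radial glia genes, 6 of which had positive values, and Aif1 (0.46, SE 0.295) and C1qa (0.36, SE 0.282) of the microglial genes. They were Pecam1 (-0.14, SE 0.0858) and Kdr (-0.10, SE 0.0677) of the endothelial genes, all 5 of which had negative values, and Bcl11b (-0.42, SE 0.253) and Tubb3 (0.08, SE 0.0623) of the neuronal genes. Mural cell genes had a median of 0.23 over 9, meningeal genes of -0.38 over 7 and choroid plexus genes of -1.15 over 4. The mural genes with the smallest p were Pdgfrb, given above, and Abcc9 (0.31, SE 0.172), the meningeal ones Col3a1 (-0.42, SE 0.264) and Col1a1 (-0.89, SE 0.607), and the choroid plexus ones Clic6 (-1.74, SE 0.574, unadjusted p = 0.0175) and Aqp1 (-0.50, SE 0.268). Choroid plexus markers summed to 0.293 to 9.51 CPM in the knockout and to 1.95 to 57.6 CPM in the control, and meningeal markers to 8.85 to 20.5 CPM in the knockout and to 7.82 to 51.3 CPM in the control, so both overlapped between the genotypes.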

How the data were processed

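Messenger RNA was sequenced in 12 libraries. Alignment used STAR 2.7.8a with GRCm39 and counting used featureCounts 2.0.3, per the submitters' processing notes. Counting was reverse-stranded on GENCODE vM28, per the file headers, and a read with several alignments or several overlapping genes was split among them. The authors deposited these as estimated counts, not normalized. Values that are not whole made up 21.6% to 23.9% of the detected genes of a library.

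For testing, counts were rounded and fitted with edgeR 4.0.16 in R 4.3.3 (TMM scaling, filterByExpr, robust quasi-likelihood fits, Benjamini-Hochberg over all genes tested, called at an adjusted p under 0.05). CPM was computed from the deposited counts and the library totals, and per kb with the listed exon lengths. Knockout was compared with control in sums of both libraries of a titled embryo, and within each part. Part and interaction were fitted over the 12 libraries without a replicate block. The scripts were checked on simulated counts.

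The pairing of libraries by embryo number was checked by the correlation of deviations from group means. It ran from -0.709 to -0.238 in the 6 titled pairs and from -0.245 to 0.750 in other pairs of a genotype, so 0 of 6 exceeded 0.1. The group means rest on the part labels, and Nr2f1 was higher in the library titled caudal in 4 of the 6 embryos. The highest r joined libraries of like Nr2f1: knockout rostral 2 with caudal 7 (340 and 348 CPM) and control rostral 3 with caudal 9 (348 and 373 CPM). The correlation thus mixes part with embryo and cannot decide the pairing. Sex-linked transcripts, alike in 1 of the 6, did not bear out the titled pairing. The sums, the embryos left out and the random effect rest on the titles alone.

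The 9 members and the 15 lists were chosen with earlier results of these data known. Genes named are the 9 members, Egfr, of each list its called members (at most 4) or else the 2 with the smallest p, called genes within 500 kb of Olig2 or Olig1, and the 5 genes nearest to Olig1, Olig2 and Pdgfra, predicted and sex-linked genes left out. Other genes given with values in the text (Sox8, Mbp, Pdgfa, Gli1, and Synj1 and Gm49626 as the ends of a range) were added later for their roles or places. Alternatives were DESeq2 1.42.0 (its size factors and its Wald test), no filter, mitochondrial genes left out, each replicate left out, 12 separate libraries, limma-voom (limma 3.58.1) with the embryo as a random effect, the title prefix as a block or 1 prefix alone, a fold threshold of 1.2, the replicate block, TMM-scaled levels, and no control libraries with transcripts of both sexes. Leaving out the 2 knockout libraries with the highest mitochondrial share, leaving out the 2 control libraries in the rostral test and in the fit of separate libraries, and the count ratios were chosen after seeing the data.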

Additional observations from a re-analysis of the deposited data

How the results depend on the processing

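Olig1 and Olig2 were lower in the knockout under all 18 alternatives over sums, with log2 fold changes of -1.45 to -1.14 and -1.49 to -1.25, and each was called in 13 of them (adjusted p from 1.1e-38 to 0.528 and from 3.3e-32 to 0.196). The number of precursor genes called was 0 with 12 separate libraries, with embryos titled 4692 alone, without the 2 knockout libraries with the highest mitochondrial share, and with 12 separate libraries without the 2 control libraries with both sexes' transcripts; with single replicates left out it was 0 to 2. The number of all genes called over sums was 32 by DESeq2, 113 with no filter, 11 by limma-voom, 13 without the 2 control libraries, 3 with 12 separate libraries, 2 with embryos titled 4692 alone, 3 without the 2 knockout libraries and 10 with 12 separate libraries without the 2 control libraries; with single replicates left out it was 2 (without knockout 5) to 21 (without knockout 2). In rostral libraries it was 4 by DESeq2 and 2 with no filter. In caudal libraries it was 77 by DESeq2 and 57 with no filter, of which 2 and 1 were precursor genes; with single replicates left out it was 2 to 8, with 0 to 1 precursor genes. DESeq2 called 56 genes between parts and 1 for the interaction, and the interaction gave 0 to 6 with single replicates left out. The replicate block gave 0 calls for part and for the interaction.

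Uncalled log2 fold changes near 0 changed sign. Over sums, Cspg4 was at -0.061 without the 2 control libraries, -0.19 without the 2 knockout libraries and -0.16 with 12 separate libraries without the 2 control libraries; with single replicates left out it ran from -0.072 to 0.24, and Gpr17 from -0.13 to 0.012. In rostral libraries without the 2 control libraries, Nkx2-2 was at 0.23, Sox10 at 0.098 and Bcas1 at 0.19; Bcas1 was at 0.0011 without mitochondrial genes. With single replicates left out these 3 ran from -0.48 to 0.13, from -0.22 to 0.051 and from -0.27 to 0.26. Caudal against rostral, without the 2 knockout libraries, Olig1 was at 0.14, Olig2 at 0.17, Pdgfra at 0.15, Cspg4 at 0.27 and Gpr17 at 0.028; with no filter Pdgfra was at 0.00049 and Cspg4 at 0.0040, and Cspg4 was at 0.066 with the replicate block. With single replicates left out the ranges were -0.26 to 0.21 (Olig1), -0.20 to 0.21 (Olig2), -0.35 to 0.29 (Nkx2-2), -0.13 to 0.22 (Pdgfra), -0.17 to 0.34 (Cspg4), -0.30 to 0.099 (Gpr17) and -0.40 to 0.12 (Bcas1). For the interaction, Olig2 was at 0.12 without the 2 knockout libraries, and ran from -0.85 to 0.22 with single replicates left out, as Nkx2-2 did from -1.31 to 0.11. The causes were not tested.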
